A study of Mus musculus with 67 samples.

Results

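Crypts isolated from mouse small intestine 2 days after a single irradiation were compared with normal crypts in bulk RNA-seq, in which the RNA of all cells of a crypt preparation is sequenced together. The libraries were taken by their labels. Of the 67 bulk libraries in the table, 18 are crypts, and 4 of these make up the comparison, the libraries Normal 1 and 2 and IR day 2 replicates 1 and 2. The remaining 49 libraries are cultured organoids and were not used. The study's legends name C57BL/6 mice for the irradiation model, and its methods give a dose of 12 Gy from a GammaCell 40 irradiator. The IR groups received irradiation without the pair of small molecules VPA and EPZ6438 that the VE groups were given, and whether they were gavaged with a vehicle is not given in the sources used here. The methods give female mice 8 weeks old for irradiation, and Normal crypts are labelled only as normal. No transgene or deletion is labelled in either group. The protocol for isolating crypts names the proximal small intestine, release with EDTA and a strainer, and the methods for the irradiated mice name only the small intestine. No sort of a cell type is described. Crypts of IR day 1 and IR day 3, with 2 libraries each, were used to place day 2 in time. The labels number the libraries of a group as repeats. A legend counts mice as replicates for crypts of day 3, and for Normal and day 2 this is not given in the sources used here, so where the repeats are not separate mice the p-values measure only the spread between preparations.

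The crypt is the proliferative compartment of the intestinal epithelium. Stem cells at its base, which express Lgr5 and Olfm4, divide next to the antimicrobial Paneth cells, and their progeny divide further up before they differentiate into absorptive enterocytes and secretory cells. Ionizing radiation breaks DNA, which activates the transcription factor p53. Its targets stop the cell cycle or start apoptosis, and dividing crypt cells are lost. In the days that follow, surviving cells take on a program with Clu, annexins and other genes of the fetal gut, which depends on the coactivator YAP, and rebuild the crypt.

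The values are TPM, shares of all transcripts adjusted for gene length, which keep no read numbers, so the depth of each library and its counting error are unknown. Genes encoded by the mitochondrial genome took 18.1% and 12.7% of the summed TPM in Normal and 39.9% and 32.6% in IR day 2, and mt-Atp8, a short gene that overlaps mt-Atp6, gave 88148 and 52862 TPM in Normal and 231940 and 156078 TPM in IR day 2. These 13 genes were left out and each library was rescaled, and all TPM values below are on that scale. The 2 libraries of a group correlated across genes at r = 0.96 for Normal and 0.97 for IR day 2, against 0.87 to 0.90 between groups. The epithelial markers Epcam (1073 and 983 TPM in Normal and 1235 and 1153 TPM in IR day 2) and Krt8 (3016 and 3939.8 TPM in Normal and 4586 and 4733 TPM in IR day 2) were high in all 4 libraries. The stromal markers Col1a1, Pdgfra, Cdh5, Pecam1, Acta2 and Myh11 stayed under 2 TPM in all 4 libraries. In Normal, Col1a1 was at 0.57 and 1.12 TPM and Pecam1 at 1.89 and 0.882 TPM. These are low members of their lists. In Normal the fibroblast list summed to 22.5 and 12.3 TPM, and the smooth muscle list to 24.4 and 35.7 TPM. In each of these lists 1 marker passed a minimum mean of 5 TPM, so some stromal markers were present.

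Over 11388 genes tested, 855 (7.51%) were higher and 1549 (13.6%) were lower 2 days after irradiation, where limma had to give a p below 0.05 after Benjamini-Hochberg adjustment and a difference of 2-fold or more. The groups did not overlap for any of these 2404 genes, and 66.4% of all genes tested did not overlap. The balance of the directions depended on the scaling. The median log2 difference of all genes tested was -0.29 after rescaling and -0.04 after quantile normalization, which gives every library the same distribution of values. Quantile normalization called 1198 genes higher (10.5%) and 990 lower (8.69%), so higher genes were 54.8% of its calls and 35.6% of the calls after rescaling. In all 1808 genes were called under both, 828 higher and 980 lower. Without Normal replicate 2 the lower calls were 949. Differences below are after rescaling and stand against the median of -0.29, and a verb of change is used only of genes that passed this test.

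**Figure D1:**
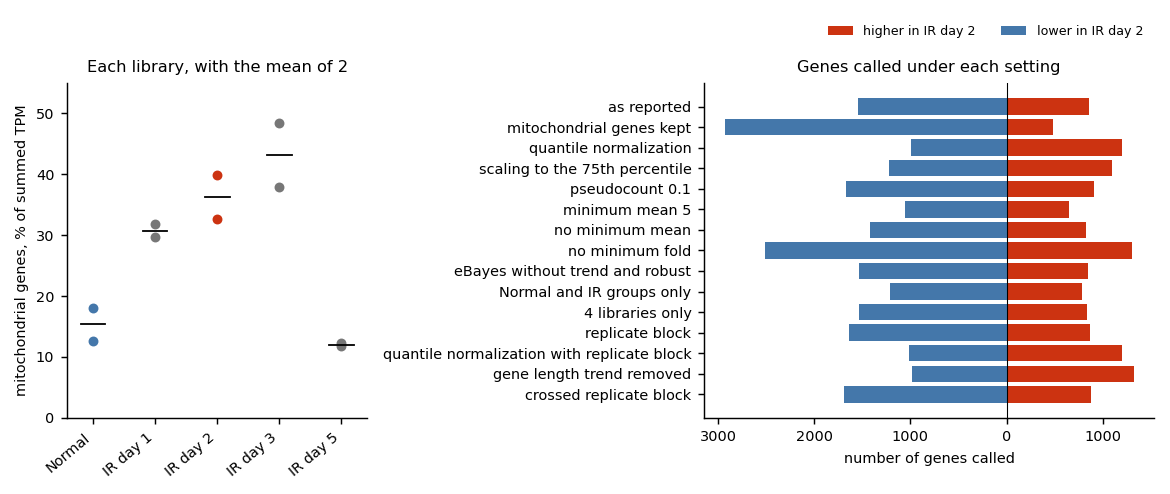
Left, the share of summed TPM (percent, y axis) taken by mitochondrial genes in each Normal and IR crypt library (points) with the mean of 2 (line). Right, the number of genes (x axis) called higher (red) and lower (blue) in IR day 2 than in Normal under each setting. Both IR day 2 libraries lie above both Normal libraries in mitochondrial share, and the lower calls outnumber the higher ones by 1549 to 855 as reported but not with quantile normalization, where they are 990 against 1198.

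The 12 largest rises were led by 3 genes. Clca4a, a member of the calcium-activated chloride channel regulator family, was at 2.79 and 1.27 TPM in Normal and 404 and 192 TPM in IR day 2 (log2 difference 6.57, SE 0.49, adjusted p = 2.02e-06). Phlda3, a p53 target that restrains Akt signaling, was at 0.531 and 0.77 TPM in Normal and 91 and 132 TPM in IR day 2 (log2 difference 6.07, SE 0.20, adjusted p = 1.08e-09). Il1rn, the antagonist of the interleukin-1 receptor, was at 4.04 and 1.25 TPM in Normal and 182 and 181 TPM in IR day 2 (log2 difference 5.76, SE 0.44, adjusted p = 2.13e-06). For all of these the lower IR day 2 library was far above the higher Normal library. The other 9 of the 12 largest rises had log2 differences from 4.65 to 5.75. They were Pmp22, a membrane protein of cell junctions and myelin, Anxa8, Anxa1 and S100a6, which bind calcium, Mbl2, a lectin of the complement system, Crip2, Npl, which degrades sialic acid, Tm4sf4 and Serpinb5. S100a6 was the most abundant of them, with 151 and 182 TPM in Normal and 3523 and 5718 TPM in IR day 2 (log2 difference 4.75, SE 0.21, adjusted p = 2.86e-08), and the gene lies at chr3:90612882-90624181 on mm10. Phlda3 lies at chr1:135766119-135769136 and Clca4a at chr3:144952480-144975045.

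**Figure D2:**
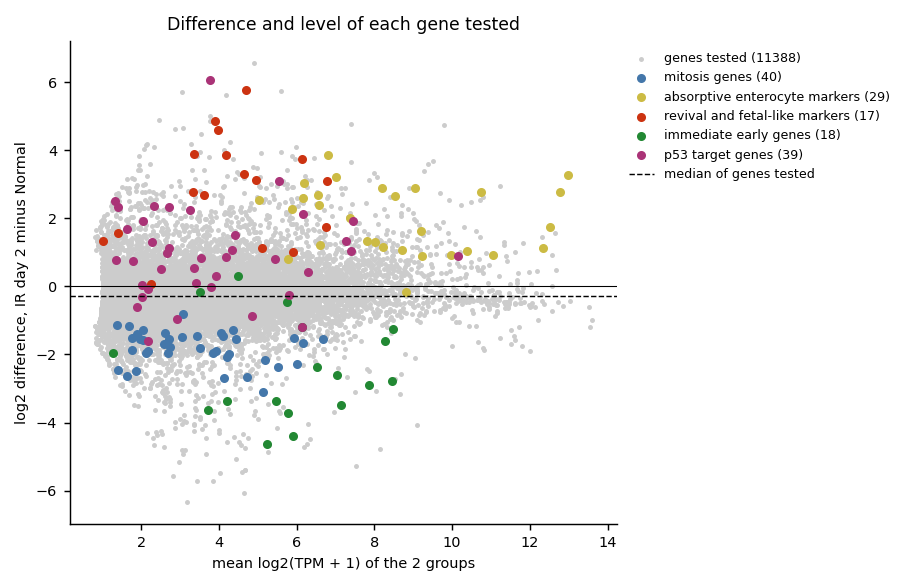
Each point is a gene tested, with the mean log2(TPM + 1) of the groups on the x axis and the log2 difference, IR day 2 minus Normal, on the y axis. Colors mark 5 lists with the number of genes tested, and the dashed line is the median of all genes tested (-0.29). All 40 mitosis genes lie below 0, and 28 of 29 absorptive enterocyte markers lie above it.

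Of 39 p53 target genes tested, 17 rose, against 7.51% of all genes tested, and 2 fell, with a median log2 difference of 0.85 (21 and 2, median 1.13, after quantile normalization). The falls were 3 without IR day 2 replicate 1 and 1 without IR day 2 replicate 2 or without Normal replicate 2, and with mitochondrial genes kept the list had 12 rises and 4 falls. Cdkn1a, which encodes the cell cycle inhibitor p21, was at 96.3 and 82.2 TPM in Normal and 347 and 333 TPM in IR day 2 (log2 difference 1.92, SE 0.16, adjusted p = 5.19e-06). Mdm2, the ubiquitin ligase that degrades p53, was at 13 and 12.5 TPM in Normal and 33.8 and 23.3 TPM in IR day 2 (log2 difference 1.08, SE 0.33, adjusted p = 0.0223), and this call was lost without IR day 2 replicate 1 and without either Normal library. Ccng1, a cyclin induced by p53, was at 16.1 and 13.7 TPM in Normal and 124 and 146 TPM in IR day 2 (log2 difference 3.10, SE 0.20, adjusted p = 6.37e-07). The IR day 2 libraries were both above both Normal libraries for all of them, by the least for Mdm2. The remaining rises included Eda2r at 2.50, a death-domain receptor, Ak1 at 2.34, Plk2 at 2.32 and Zmat3 at 1.93. The pair that fell was Ddb2, which recognizes ultraviolet DNA lesions, at 4.69 and 9.43 TPM in Normal and 1.52 and 1.57 TPM in IR day 2 (log2 difference -1.60, SE 0.33, adjusted p = 0.00279), and Btg2, an antiproliferative gene that is also an immediate early gene, at 90.4 and 118 TPM in Normal and 51.2 and 39.5 TPM in IR day 2 (log2 difference -1.18, SE 0.36, adjusted p = 0.0243). Both are members of the list and moved against its median. Gadd45a, a gene that p53 also controls, is not in this list and fell as well, as given below among YAP target genes.

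Among 13 genes of the BCL2 family, which controls apoptosis, 3 rose and none fell, against 7.51% and 13.6% of all genes tested. The proapoptotic effector Bax, also a p53 target, was at 99.8 and 91.9 TPM in Normal and 209 and 277 TPM in IR day 2 (log2 difference 1.32, SE 0.15, adjusted p = 3.87e-05), and Bok, another effector, at 4.82 and 13.4 TPM in Normal and 47 and 75.5 TPM in IR day 2 (log2 difference 2.73, SE 0.32, adjusted p = 6.28e-05). Bcl2l1, whose main product protects from apoptosis, rose with them, from 19.3 and 16.7 TPM to 64.1 and 50.2 TPM (log2 difference 1.61, SE 0.19, adjusted p = 7.15e-05). Bbc3, which encodes PUMA, was at 7.89 and 7.18 TPM in Normal and 11.2 and 11.5 TPM in IR day 2 and did not pass (log2 difference 0.53, SE 0.29, adjusted p = 0.165), and the log2 difference of Pmaip1, which encodes NOXA, was -0.03 (adjusted p = 0.97).

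Promoter sequences of the p53 list were read from RefSeq (GRCm38.p6), where 29 of its 40 genes matched. The p53 decamer, the unit of which a p53 response element holds a pair, was searched in the 250 bases before the start and was in 23.8% of the 42 windows of the list and in 5.88% of the 11338 windows of genes tested (7.13% of all 32851 windows). The consensus equals its own reverse complement, so each match holds for both strands. The windows of Ccng1 (chr11:40755287-40755536, minus strand) and Cdkn1a (chr17:29090729-29090978, plus strand) are shown because they belong to the called members with the largest rises whose windows held a match, which the capitals mark.
Ccng1: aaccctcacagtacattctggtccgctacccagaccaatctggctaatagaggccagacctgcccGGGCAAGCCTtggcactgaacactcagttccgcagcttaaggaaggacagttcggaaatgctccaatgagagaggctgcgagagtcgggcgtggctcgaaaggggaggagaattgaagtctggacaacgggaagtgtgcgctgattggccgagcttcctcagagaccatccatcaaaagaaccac
Cdkn1a: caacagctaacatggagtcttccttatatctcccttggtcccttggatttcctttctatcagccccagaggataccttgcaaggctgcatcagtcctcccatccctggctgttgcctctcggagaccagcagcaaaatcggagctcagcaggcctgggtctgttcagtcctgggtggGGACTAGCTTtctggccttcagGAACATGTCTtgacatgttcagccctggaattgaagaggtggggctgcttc
The match in Ccng1 starts 185 bases before the start of the gene, and those in Cdkn1a 73 and 51 bases before it. A match of letters is a description of the sequence and shows no binding.

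Of 40 mitosis genes, 39 fell, against 13.6% of all genes tested, and none rose, with a median log2 difference of -1.68, and 35 fell after quantile normalization (median -1.45). Mki67, which marks cycling cells, was at 5.97 and 9.32 TPM in Normal and 0.753 and 0.331 TPM in IR day 2 (log2 difference -2.47, SE 0.47, adjusted p = 0.00156). Top2a, the topoisomerase that untangles sister chromatids, was at 43.9 and 43.2 TPM in Normal and 5.85 and 5.9 TPM in IR day 2 (log2 difference -2.69, SE 0.30, adjusted p = 3.50e-05). The largest fall of the list was in Cdca3, a trigger of mitotic entry, at 94.3 and 106 TPM in Normal and 8.08 and 14.4 TPM in IR day 2 (log2 difference -3.09, SE 0.25, adjusted p = 4.44e-06). Both IR day 2 libraries were far below both Normal libraries for each of them. Ccnb2, a mitotic cyclin, was at 58.8 and 72.8 TPM in Normal and 7.91 and 11.1 TPM in IR day 2 (log2 difference -2.67, SE 0.23, adjusted p = 6.20e-06).

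DNA replication genes had 31 of 46 lower, against 13.6% of all genes tested, and none higher (median -1.21), and 17 lower after quantile normalization and 20 after removal of a trend with gene length. Tk1, the thymidine kinase of S phase, had the largest fall, from 55.1 and 77.2 TPM to 8.01 and 6.31 TPM (log2 difference -3.03, SE 0.26, adjusted p = 5.37e-06). Pcna, the sliding clamp of the DNA polymerases, and Mcm2, a subunit of the replicative helicase, were lower by less than 2-fold and so were not called, at 140.0 and 154 TPM in Normal and 85.2 and 90.1 TPM in IR day 2 for Pcna (log2 difference -0.74, SE 0.16, adjusted p = 0.00338) and at 10.7 and 22.2 TPM in Normal and 8.76 and 6.44 TPM in IR day 2 for Mcm2 (log2 difference -0.95, SE 0.32, adjusted p = 0.0364). Uhrf1, which carries DNA methylation through replication, was at 11.1 and 19.6 TPM in Normal and 3.7 and 2.86 TPM in IR day 2 (log2 difference -1.89, SE 0.34, adjusted p = 0.0011). Of 15 homologous recombination and Fanconi genes, 7 fell, against 13.6% of all genes tested, and none rose, and without Normal replicate 2 the falls were 3. Brca2, a DNA repair gene, was at 5.62 and 4.73 TPM in Normal and 0.988 and 0.271 TPM in IR day 2 (log2 difference -1.95, SE 0.39, adjusted p = 0.00245).

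The promoters of these lists were searched for 3 elements of cell cycle genes on both strands. The cell cycle homology region, CHR, was searched for in its usual form TTTGAA and in the other form that was used here, TTCGAA. The box bound by the factor NF-Y was searched for by the letters of its name, CCAAT. The site of the E2F factors was searched for in the forms TTTCCCGC, TTTGGCGC, TTTGCCGC and TTTCGCGC. No element contains another. Over all 32851 windows of 250 bases, CHR was in 17.1%, CCAAT in 33.8% and E2F in 1.86%. In the 250 bases before the start, CCAAT was in 77.8% of the 36 windows of the mitosis list (34 of 40 genes matched) and in 35.7% of windows of genes tested, and CHR was in 33.3% against 12.6%. When the 50 bases after the start were included, CHR was in 80.6% of the mitosis windows and 14.4% of the windows of genes tested. E2F was in 24.4% of the 41 windows of the replication list (36 of 46 genes matched) and 3.17% of windows of genes tested. The windows of Top2a (chr11:99024190-99024439, minus strand), Ccnb2 (chr9:70421555-70421804, minus strand) and Uhrf1 (chr17:56304063-56304312, plus strand) are shown because they belong to the members with the largest falls whose upstream bases hold CHR with CCAAT, or E2F for the replication list. Capitals mark CHR and CCAAT in Top2a and Ccnb2 and E2F in Uhrf1.
Top2a: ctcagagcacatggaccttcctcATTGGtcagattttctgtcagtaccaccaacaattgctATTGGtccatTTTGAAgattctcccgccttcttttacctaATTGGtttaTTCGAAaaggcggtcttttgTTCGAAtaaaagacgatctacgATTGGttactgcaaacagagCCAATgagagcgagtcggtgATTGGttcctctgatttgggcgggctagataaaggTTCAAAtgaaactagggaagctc
Ccnb2: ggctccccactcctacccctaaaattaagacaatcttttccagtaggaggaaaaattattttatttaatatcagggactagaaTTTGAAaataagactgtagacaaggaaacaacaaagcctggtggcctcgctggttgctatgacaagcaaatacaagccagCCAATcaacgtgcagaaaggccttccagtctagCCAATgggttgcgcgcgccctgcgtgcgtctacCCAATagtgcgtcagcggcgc
Uhrf1: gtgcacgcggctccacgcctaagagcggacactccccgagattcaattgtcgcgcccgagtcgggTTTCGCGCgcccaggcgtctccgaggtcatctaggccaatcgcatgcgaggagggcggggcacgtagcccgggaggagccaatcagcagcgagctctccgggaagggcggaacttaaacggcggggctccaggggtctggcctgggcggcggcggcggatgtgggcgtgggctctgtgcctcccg
Both mitosis windows hold several CCAAT matches, the nearest to the start beginning 58 bases before it in Top2a and 21 bases in Ccnb2, and the E2F match of Uhrf1 begins 185 bases before its start.

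Among markers of the stem cells at the crypt base, Olfm4 was at 280.1 and 475 TPM in Normal and 11 and 15 TPM in IR day 2 (log2 difference -4.72, SE 0.41, adjusted p = 6.20e-06), 1 of the 12 largest falls outside the immunoglobulin genes. Lgr5, a receptor for R-spondin, was too low to be tested, at 0.766 and 1.99 TPM in Normal and 0.316 and 0.218 TPM in IR day 2. Of 17 markers tested, 6 fell, against 13.6% of all genes tested, namely Olfm4, Smoc2 (-3.23), Gkn3 (-1.85), Cdca7 (-1.60), Lrig1 (-1.51) and Rgmb (-1.21). Without Normal replicate 2 the falls were 3, and after quantile normalization 4. Hopx, a marker of reserve stem cells, rose to 179 and 182 TPM from 80.7 and 97.6 TPM (log2 difference 1.02, SE 0.14, adjusted p = 1.62e-04), and this was not called after quantile normalization (0.98), with mitochondrial genes kept or without Normal replicate 1. Bulk values cannot tell fewer cells of a type from less RNA per cell. Of 11 Wnt feedback and target genes tested, 2 rose, Sp5 (1.18) and Cd44, and none fell, against 7.51% and 13.6% of all genes tested. With mitochondrial genes kept 1 rose and 2 fell, where 485 of 10613 genes rose and 2933 fell. Axin2 was at 10.7 and 21.5 TPM in Normal and 9.09 and 6.62 TPM in IR day 2 (adjusted p = 0.211) and Rnf43 at 10.7 and 9.91 TPM in Normal and 16.2 and 4.63 TPM in IR day 2 (adjusted p = 0.788), while Cd44, a hyaluronan receptor and Wnt target, rose from 3.88 and 5.29 TPM to 20.7 and 24.6 TPM (log2 difference 2.09, SE 0.34, adjusted p = 6.28e-04).

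**Figure D3:**
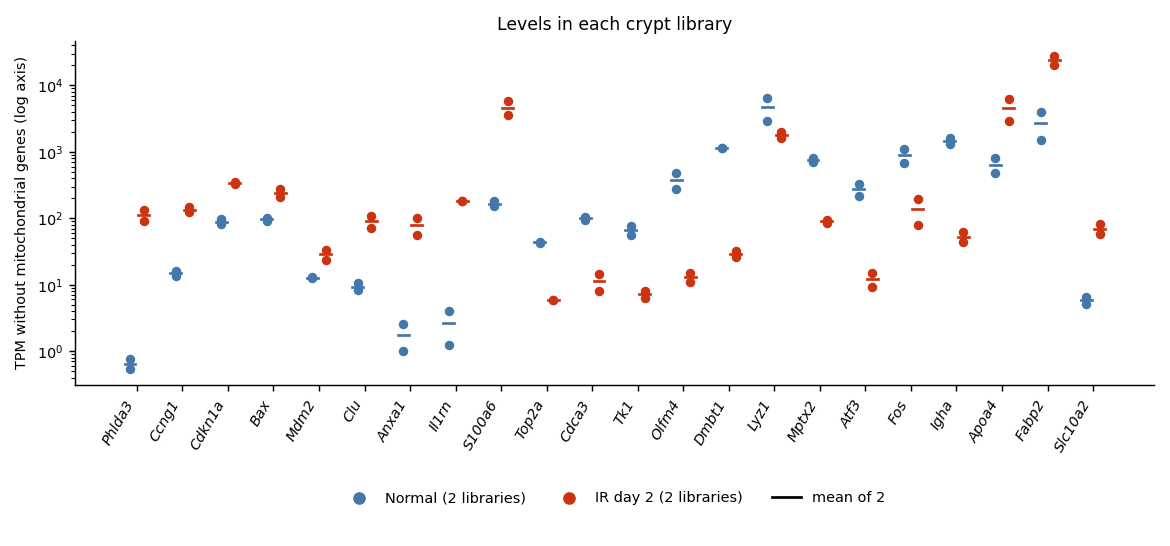
TPM without mitochondrial genes (log axis) of 22 genes in the 2 Normal libraries (blue) and the 2 IR day 2 libraries (red), with the mean of 2 as a line. The groups do not overlap for any of these genes, and Phlda3 and Il1rn rise most and Dmbt1 falls most.

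Of the revival and fetal-like markers, 17 passed the minimum level, 15 of these rose and none fell, against 7.51% and 13.6% of all genes tested, and their median log2 difference was 3.10. With no minimum, 15 of 22 rose, with a median of 2.20, where 831 of all 19065 genes rose. Clu, the secreted chaperone that names the revival stem cell, was at 10.5 and 8.29 TPM in Normal and 71.7 and 109 TPM in IR day 2 (log2 difference 3.12, SE 0.40, adjusted p = 1.09e-04). Anxa1, a phospholipid-binding regulator of inflammation, was at 2.53 and 1.01 TPM in Normal and 56.2 and 102 TPM in IR day 2 (log2 difference 4.85, SE 0.31, adjusted p = 6.32e-07), and Ly6a, which encodes Sca-1, at 24.6 and 11.5 TPM in Normal and 162 and 348 TPM in IR day 2 (log2 difference 3.73, SE 0.46, adjusted p = 8.44e-05). IR day 2 replicate 2 was the higher library for all 3. Il33, an alarmin cytokine, was at 3.86 and 3.7 TPM in Normal and 62.8 and 74.9 TPM in IR day 2 (log2 difference 3.86, SE 0.35, adjusted p = 8.16e-06). Cxcl16 and Emp1 also rose, with log2 differences of 3.29 and 3.10. Among the members tested, Areg, which encodes amphiregulin, was at 41.8 and 41 TPM in Normal and 74.1 and 94.5 TPM in IR day 2 and was not called (log2 difference 1.00, SE 0.39, adjusted p = 0.0622), and Msln was at 3.09 and 4.14 TPM in Normal and 3.3 and 4.42 TPM in IR day 2 (log2 difference 0.07, SE 0.44, adjusted p = 0.906). Spp1, Basp1, Gja1, Trim29 and Col4a1 were below the minimum level, and Ccn1 and Ccn2 were not analysed here.

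Of 13 numbered S100a genes tested, which encode calcium-binding proteins, 10 rose, against 7.51% of all genes tested, led by S100a6, with S100a14 at 3.84, S100a11 at 3.37 and S100a10 at 1.44. The most abundant after S100a6 was S100a10, at 1213 and 852 TPM in Normal and 2423 and 3126 TPM in IR day 2. Of 11 annexins 8 rose, against the same 7.51%, led by Anxa8 at 0.11 and 0.187 TPM in Normal and 51.6 and 67.3 TPM in IR day 2 (log2 difference 5.71, SE 0.28, adjusted p = 6.54e-08), with Anxa3 at 4.60, Anxa10 at 2.76 and Anxa2 at 2.40. Anxa6 was at -0.74 and was not called (adjusted p = 0.074). These 2 families were picked after the values were seen.

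Of 16 YAP target genes tested, 6 rose and 1 fell, against 7.51% and 13.6% of all genes tested, and 9 rose after quantile normalization, against 10.5%. With no minimum level, 6 of 27 rose, where 831 of all 19065 genes did, and the median of the list went from 0.84 to 0.28. Ajuba, a LIM protein that restrains the Hippo kinases, was at 0.586 and 0.769 TPM in Normal and 6.66 and 5.21 TPM in IR day 2 (log2 difference 2.04, SE 0.35, adjusted p = 8.98e-04), and Amotl2 at 1.66 and 2.36 TPM in Normal and 1.78 and 0.743 TPM in IR day 2 (log2 difference -0.44, SE 0.52, adjusted p = 0.537). Gadd45a, a stress gene that p53 also controls, fell from 215 and 215 TPM to 69 and 41.8 TPM (log2 difference -1.98, SE 0.39, adjusted p = 0.00194). The other rises were Anxa1, Il33, Ereg, F3 and Asap1, of which Anxa1, Il33 and Ereg also stand in the revival list.

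Of 9 EGF family ligands and receptors tested, 3 rose and 1 fell, against 7.51% and 13.6% of all genes tested. After quantile normalization 5 rose, against 10.5%. The ligands that were called went in both directions, and Areg was not called, as given above. Btc, betacellulin, was at 0.839 and 1.62 TPM in Normal and 11.9 and 14.8 TPM in IR day 2 (log2 difference 2.7, SE 0.25, adjusted p = 1.02e-05) and Ereg, epiregulin, at 0.58 and 0.49 TPM in Normal and 3.6 and 3.53 TPM in IR day 2 (log2 difference 1.57, SE 0.30, adjusted p = 0.00177). Hbegf, the heparin-binding ligand and an immediate early gene, was at 125 and 156 TPM in Normal and 14 and 11.3 TPM in IR day 2 (log2 difference -3.37, SE 0.40, adjusted p = 6.67e-05). The groups did not overlap for any of the 3 ligands. The receptor Egfr was at 1.48 and 4.6 TPM in Normal and 4.73 and 6.06 TPM in IR day 2 and did not pass (log2 difference 0.77, SE 0.41, adjusted p = 0.158), and Errfi1, a feedback inhibitor of the receptor, rose with a log2 difference of 1.78.

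Of the Reg lectins, secreted proteins of the gut epithelium, Reg3b was at 27679.9 and 10356 TPM in Normal and 6546 and 8317 TPM in IR day 2 (log2 difference -1.20, SE 0.36, adjusted p = 0.021). That call was lost in 6 alternatives, which were leaving out IR day 2 replicate 1 or Normal replicate 1, the fits of fewer groups and of 4 libraries, scaling to the 75th percentile and removal of the gene length trend. Reg3g was at 10550.2 and 3663 TPM in Normal and 2555 and 3814 TPM in IR day 2 (log2 difference -0.99, SE 0.41, adjusted p = 0.075). Reg4, a marker of deep crypt secretory cells, rose from 149.8 and 208 TPM to 468 and 677 TPM (log2 difference 1.67, SE 0.28, adjusted p = 7.29e-04). Reg1, Reg2 and Reg3a were not called, at 866 and 670.3 TPM in Normal and 1191 and 1232 TPM in IR day 2 for Reg1, 10.3 and 4.07 TPM in Normal and 1.05 and 0.122 TPM in IR day 2 for Reg2 (adjusted p = 0.059) and 161 and 84.5 TPM in Normal and 132 and 117 TPM in IR day 2 for Reg3a. Reg3d was below the minimum level.

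The study's injury-associated regenerative signature was drawn from epithelium after irradiation, helminth infection and colitis, so it is not independent evidence of a direction. It has 63 genes expected to be higher and 54 expected to be lower. At 2 days 18 of 61 tested genes of the first kind rose and 4 fell (median 0.26), against 7.51% and 13.6% of all genes tested. The falls were 2 after quantile normalization. With mitochondrial genes kept 10 of 60 fell, where 2933 of 10613 genes tested were lower. The rises were led by Sprr1a, a cornified envelope protein, at 1.78 and 1.5 TPM in Normal and 31 and 46.7 TPM in IR day 2 (log2 difference 3.89, SE 0.38, adjusted p = 1.40e-05). Those that fell were Zc3h7a (-1.66), Gadd45g (-1.23), Reg3b and Tgm2 (-1.03), of which Zc3h7a was not called without IR day 2 replicate 2 or without either Normal library, and Reg3b lost its call as given above. Of 52 tested genes of the second kind 10 fell and 3 rose (median -0.38), against 13.6% and 7.51% of all genes tested. With scaling to the 75th percentile 9 fell and 7 rose (median -0.21). The counts were the same after removal of the gene length trend (median 0.03). This second list had 1 rise and 10 falls without IR day 2 replicate 1, 5 rises and 7 falls without IR day 2 replicate 2, and 1 rise and 20 falls with mitochondrial genes kept. Mme, the brush border peptidase neprilysin, rose against its place in the second group, from 15.9 and 14.9 TPM to 208 and 92.8 TPM (log2 difference 3.10, SE 0.54, adjusted p = 9.36e-04).

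Several keratins and other genes of stratified epithelium were higher, some of them listed at 0 in Normal. With no minimum level, 11 of 37 keratins rose and 0 fell, where 831 of all 19065 genes rose and 1419 fell. The single keratin called lower among those that passed the minimum, Krt10 (-1.05), lost its call in 11 alternatives. Krt5, Krt6a, Krt16 and Mt4 were listed at 0 in both Normal libraries and reached 3.03 and 5.64 TPM for Krt5, 5.06 and 12.1 TPM for Krt6a, 4.29 and 10.0 TPM for Krt16 and 11.3 and 25 TPM for Mt4, all called higher (adjusted p = 3.55e-05, 1.72e-05, 1.77e-05 and 2.45e-04). Krt15 was at 1.68 and 2.1 TPM in Normal and 35.3 and 52.8 TPM in IR day 2 (log2 difference 3.94, SE 0.34, adjusted p = 6.42e-06), Krt14 at 0.412 and 0.158 TPM in Normal and 1.48 and 6.89 TPM in IR day 2 (log2 difference 1.79, SE 0.40, adjusted p = 0.00473) and Ly6d at 15.5 and 7.07 TPM in Normal and 120.0 and 264 TPM in IR day 2 (log2 difference 3.95, SE 0.39, adjusted p = 1.72e-05). IR day 2 replicate 2 was the higher library for all 7. Of 18 squamous epithelium markers, put together after the values were seen, 8 passed the minimum level, those listed at 0 in Normal only through IR day 2. With no minimum, 9 of 15 rose, against the same 831 of 19065 genes. The summed level of all 18 was 18.4 and 10.5 TPM in Normal and 216 and 433 TPM in IR day 2. Trp63, the master factor of basal squamous cells, was at 0 and 0 TPM in IR day 2. There the late markers Krt1 and Krtdap were at 0 and 0.0245 TPM and 0 and 0 TPM, and Dsc3 was at 0.0467 and 0.0532 TPM. The part of other tissue in these values was not tested beyond these markers.

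The summed level of 29 absorptive enterocyte markers was 24924 and 13511 TPM in Normal and 94082 and 67003 TPM in IR day 2. Of these, 21 rose and none fell, against 7.51% and 13.6% of all genes tested (median 1.99), and without IR day 2 replicate 1, the library with the higher sum, 11 rose. Fabp2, the intestinal fatty acid binding protein, was at 3975 and 1505 TPM in Normal and 27281 and 20512 TPM in IR day 2 (log2 difference 3.27, SE 0.63, adjusted p = 0.00178), and Apoa4, an apolipoprotein of chylomicrons, at 808 and 476 TPM in Normal and 6332 and 2866 TPM in IR day 2 (log2 difference 2.78, SE 0.64, adjusted p = 0.00573). Fabp1, the first marker of the list, was at 5558 and 1952 TPM in Normal and 8103 and 6316 TPM in IR day 2 and did not pass (log2 difference 1.12, SE 0.61, adjusted p = 0.168). Alpi, intestinal alkaline phosphatase, was at 161 and 224 TPM in Normal and 632 and 289.8 TPM in IR day 2 (log2 difference 1.17, SE 0.36, adjusted p = 0.0236), and 7 alternatives lost that call, among them quantile normalization and leaving out IR day 2 replicate 1 or Normal replicate 1. The largest rise was in Cyp3a11, a drug-metabolizing enzyme, at 25.4 and 28.4 TPM in Normal and 623 and 259 TPM in IR day 2 (log2 difference 3.85, SE 1.06, adjusted p = 0.0147), which was not called without IR day 2 replicate 1 or without either Normal library. How much villus epithelium each preparation held was not tested.

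Of 7 genes of ileal bile acid handling, 3 rose, against 7.51% of all genes tested. Slc10a2, the apical bile acid transporter, was at 6.57 and 5.09 TPM in Normal and 81.1 and 57.8 TPM in IR day 2 (log2 difference 3.35, SE 0.46, adjusted p = 1.68e-04), Fgf15, the hormone by which the gut represses bile acid synthesis, at 3.19 and 2.25 TPM in Normal and 41.1 and 36.4 TPM in IR day 2 (log2 difference 3.43, SE 0.54, adjusted p = 4.79e-04), and Nr0b2, a repressor induced by the bile acid receptor, at 0.866 and 2.15 TPM in Normal and 12.2 and 8.88 TPM in IR day 2 (log2 difference 2.24, SE 0.41, adjusted p = 0.00131). The groups were well apart for all of them. Fabp6, the ileal bile acid binding protein, was at 2625 and 1824 TPM in Normal and 4276 and 4494 TPM in IR day 2 and did not pass (log2 difference 1.00, SE 0.82, adjusted p = 0.362), and Slc51a, Slc51b and the receptor Nr1h4 were not called. This list of 7 was drawn up after the values were seen.

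Among Paneth cell genes, Lyz1, lysozyme, was at 2928 and 6495 TPM in Normal and 1615 and 1965 TPM in IR day 2 (log2 difference -1.29, SE 0.32, adjusted p = 0.00779), not called without IR day 2 replicate 1 or without Normal replicate 2, and Mptx2, a mucosal pentraxin, at 707 and 818 TPM in Normal and 85.7 and 93.8 TPM in IR day 2 (log2 difference -3.07, SE 0.37, adjusted p = 7.45e-05). Mmp7, the protease that activates defensins, was at 250.4 and 419.9 TPM in Normal and 339.8 and 579 TPM in IR day 2 and did not pass (log2 difference 0.45, SE 0.31, adjusted p = 0.274). In all 10 of 18 fell, against 13.6% of all genes tested, and none rose (median -1.38), of which 8 were defensins, near-identical copies between which reads may have been split. The falls were 6 without IR day 2 replicate 1, 5 without Normal replicate 2, where the list was highest, and 1 after removal of a trend with gene length. The summed level was 44453 and 93623 TPM in Normal and 24805 and 32898 TPM in IR day 2.

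Of 18 goblet cell markers 2 rose, near the 7.51% of all genes tested, and 3 after quantile normalization, against 10.5%. They were Guca2a, the guanylin precursor, at 607 and 612 TPM in Normal and 3178 and 3643 TPM in IR day 2 (log2 difference 2.48, SE 0.19, adjusted p = 2.25e-06), and Zg16 at 1.46. Muc2, the gel-forming mucin, was at 108 and 222 TPM in Normal and 319 and 186 TPM in IR day 2 (log2 difference 0.65, SE 0.59, adjusted p = 0.408) and Tff3, a trefoil peptide, at 4196 and 4669.7 TPM in Normal and 7506 and 9276 TPM in IR day 2, just under the 2-fold limit (log2 difference 0.91, SE 0.19, adjusted p = 0.00338). Among 19 enteroendocrine markers 4 rose, against 7.51% of all genes tested, led by Sst, somatostatin, at 42.2 and 83.3 TPM in Normal and 280.4 and 312 TPM in IR day 2 (log2 difference 2.30, SE 0.32, adjusted p = 1.85e-04). The rises were 1 without IR day 2 replicate 2, 2 without Normal replicate 2 and 1 with mitochondrial genes kept. Neurog3, the factor that specifies endocrine progenitors, fell from 2.23 and 7.36 TPM to 0.914 and 0.79 TPM (log2 difference -1.49, SE 0.38, adjusted p = 0.0101), a call lost without Normal replicate 2. Chga was at 81.3 and 145 TPM in Normal and 111 and 111 TPM in IR day 2 (adjusted p = 0.963). Of 7 tuft cell markers tested 1 fell, near the 13.6% of all genes tested. It was Alox5ap of leukotriene synthesis, at 10.3 and 10.4 TPM in Normal and 1.55 and 1.73 TPM in IR day 2 (log2 difference -2.10, SE 0.52, adjusted p = 0.00785), and Dclk1 was below the minimum level.

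**Figure D4:**
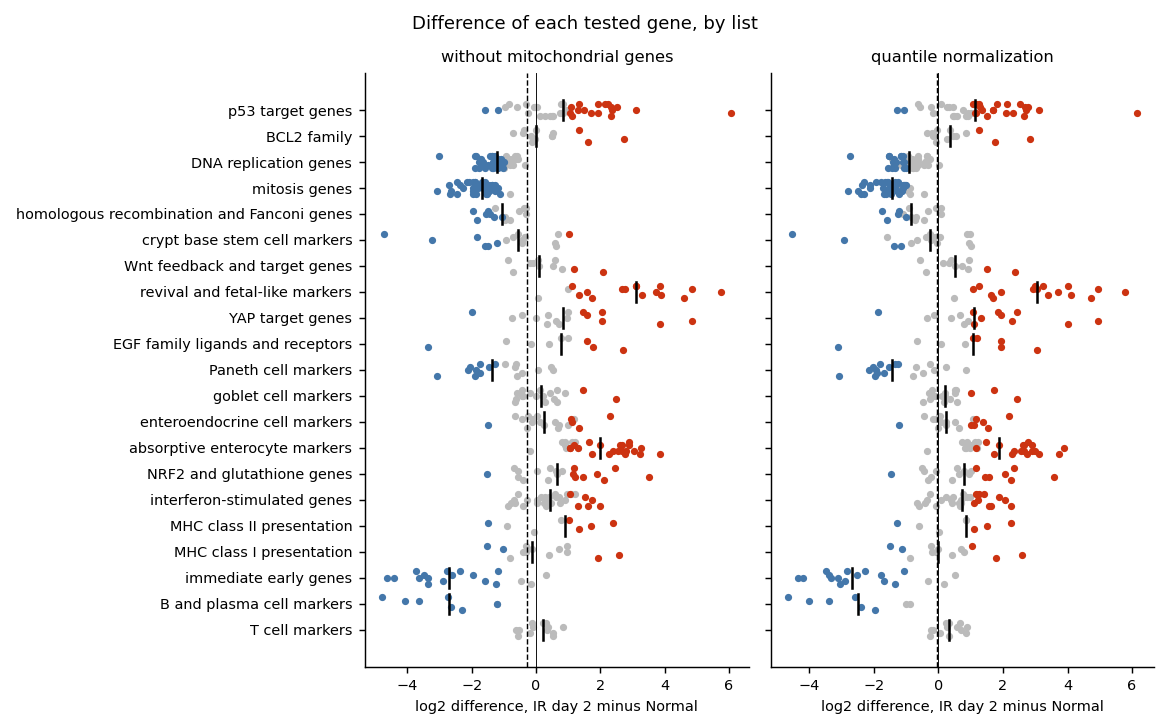
Each point is a gene tested, with its log2 difference, IR day 2 minus Normal, on the x axis and its list on the y axis, after leaving out mitochondrial genes (left) and after quantile normalization (right). Red points were called higher, blue lower and grey not called, black bars are list medians, and dashed lines are the median of all genes tested (-0.29 and -0.04). The mitosis and revival lists keep their sides under both, with medians of -1.68 and 3.10 on the left.

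Of 8 MHC class II genes, which present antigen, 4 rose, against 7.51% of all genes tested, with H2-Aa at 257 and 121 TPM in Normal and 839 and 1019.8 TPM in IR day 2 (log2 difference 2.38, SE 0.38, adjusted p = 5.35e-04), and 1 fell, H2-DMb2, at 3.64 and 2.8 TPM in Normal and 0.397 and 0.606 TPM in IR day 2 (log2 difference -1.49, SE 0.27, adjusted p = 0.00123). Cd74, the invariant chain, was at 1078 and 604 TPM in Normal and 1560.0 and 1696 TPM in IR day 2 (log2 difference 1.01, SE 0.33, adjusted p = 0.0333) and lost its call in 8 alternatives. Without Normal replicate 2 the class II genes had 2 rises and 2 falls, and the counts were the same with mitochondrial genes kept. Among 13 MHC class I genes H2-Q1 (2.57) and H2-Q2 (1.93) rose and Psmb9 (-1.54) and Psmb10 (-1.03), subunits of the immunoproteasome, fell, against 7.51% and 13.6% of all genes tested. The rises and falls of class I genes were 2 and 1 without IR day 2 replicate 1, 4 and 2 without IR day 2 replicate 2, 4 and 1 without Normal replicate 1, and 2 and 3 without Normal replicate 2. Of 30 interferon-stimulated genes 6 rose and none fell, against 7.51% and 13.6% of all genes tested, led by Usp18, which removes ISG15 from proteins, at 7.33 and 2.5 TPM in Normal and 20.8 and 19.8 TPM in IR day 2 (log2 difference 1.98, SE 0.37, adjusted p = 0.00158). Without Normal replicate 2 the list had 2 rises and 3 falls, and with mitochondrial genes kept 4 and 4. The rises were 13 without Normal replicate 1, 3 without IR day 2 replicate 1 and 10 after quantile normalization. The Normal libraries differed for these genes, and Isg15, a ubiquitin-like modifier, was at 76.7 and 17.3 TPM in Normal and 75.6 and 81.9 TPM in IR day 2 (log2 difference 1.08, SE 0.46, adjusted p = 0.0868).

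Of 19 NRF2 and glutathione genes 8 rose and 1 fell, against 7.51% and 13.6% of all genes tested, and with mitochondrial genes kept 5 rose. Ephx1, an epoxide hydrolase, was at 5.44 and 10.4 TPM in Normal and 89.4 and 102 TPM in IR day 2 (log2 difference 3.50, SE 0.22, adjusted p = 5.62e-07), and Gsta4 and Gclc, of glutathione conjugation and synthesis, had log2 differences of 2.46 and 1.88. Gstm3 fell from 232 and 175 TPM to 86 and 55.1 TPM (log2 difference -1.54, SE 0.46, adjusted p = 0.0222), not called without IR day 2 replicate 2 or without either Normal library. The classic NRF2 targets Nqo1 and Hmox1 were not called, at 53.2 and 37.2 TPM in Normal and 24.6 and 30.7 TPM in IR day 2 for Nqo1 and 4.09 and 2.25 TPM in Normal and 4.22 and 6.6 TPM in IR day 2 for Hmox1. Ribosomal protein genes had a median of -0.46 over 76 genes and 2 called lower. Nuclear genes of respiratory complex I had a median of -0.37 over 36 genes and 1 called lower. Over all genes tested the median was -0.29 and 13.6% were lower. With mitochondrial genes kept 19 and 10 were called lower, where 2933 of 10613 genes tested were lower.

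The largest falls were in immunoglobulin genes. Of the 12 largest, 11 were immunoglobulin variable segments and the other was Dmbt1. The segment Ighv1-76 was at 88 and 71 TPM in Normal and listed at 0 in both IR day 2 libraries. Of 385 immunoglobulin genes, 185 were at 0 in all 4 libraries and 163 were tested. Of those tested, 129 fell and 1 rose, against 13.6% and 7.51% of all genes tested. Segments at 0 in IR day 2, such as Ighv1-76, passed the minimum level only through Normal, so a fall was the only direction open to them. After removal of a trend with gene length 81 fell, and the median log2 difference went from -2.99 to -1.92. Their summed level went from 11709.9 and 10423 TPM to 529.7 and 736 TPM. Variable segments are similar copies, so reads may have been split among them, and the constant gene Igha, of IgA, was at 1599 and 1325 TPM in Normal and 43.2 and 62.7 TPM in IR day 2 (log2 difference -4.78, SE 0.46, adjusted p = 1.24e-05). Jchain, which joins IgA dimers, was at 209 and 119 TPM in Normal and 8.44 and 16 TPM in IR day 2 (log2 difference -3.65, SE 0.38, adjusted p = 2.30e-05). In all 7 of 8 B and plasma cell markers tested fell, against 13.6% of all genes tested. With no minimum level 8 of 12 fell (median -1.79), where 1419 of all 19065 genes fell. None of 13 T cell markers was called, with Cd3g at 32.7 and 16.5 TPM in Normal and 33.4 and 28.2 TPM in IR day 2 (log2 difference 0.38, SE 0.46, adjusted p = 0.537), and their summed level was 1039 and 328 TPM in Normal and 901 and 712 TPM in IR day 2.

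Outside the immunoglobulin genes, chosen after the values were seen, the 12 largest falls were led by Dmbt1, a mucosal scavenger receptor, at 1148 and 1145 TPM in Normal and 26.1 and 31.8 TPM in IR day 2 (log2 difference -5.27, SE 0.27, adjusted p = 1.13e-07). Among the others were Olfm4, Fosb, Mcpt1, Atf3, Apol10a, Adh4, Hbb-bs, Car4, Gsdmc4 and Gsdmc2, with log2 differences from -4.72 to -3.76. Car4, a membrane carbonic anhydrase, was at 369 and 267 TPM in Normal and 17.1 and 19.2 TPM in IR day 2 (log2 difference -4.04, SE 0.30, adjusted p = 2.02e-06), and Adh4, an alcohol dehydrogenase, at 44.5 and 42.6 TPM in Normal and 1.41 and 1.28 TPM in IR day 2 (log2 difference -4.25, SE 0.54, adjusted p = 1.05e-04). The groups were apart by more than 10-fold for both. Hbb-bs, adult hemoglobin beta, was high in a single Normal library, at 65.6 and 8.31 TPM in Normal and 0.355 and 0.428 TPM in IR day 2, and the summed level of red blood cell markers was 148 and 19.4 TPM in Normal against 1.67 and 4.13 TPM in IR day 2. Of 7 red blood cell markers 3 were under 1 TPM in all 4 libraries. The 4 tested all fell, against 13.6% of all genes tested. With no minimum level 3 of 6 fell, where 1419 of all 19065 genes fell. After quantile normalization 2 fell, and none did when 4 libraries alone were fitted.

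Immediate early genes respond within minutes to growth factors, stress and handling. Fos was at 668 and 1107 TPM in Normal and 198 and 78.4 TPM in IR day 2 (log2 difference -2.78, SE 0.53, adjusted p = 0.0018), Jun at 363 and 564 TPM in Normal and 58.1 and 26.7 TPM in IR day 2 (log2 difference -3.49, SE 0.57, adjusted p = 6.01e-04) and Atf3 at 220.1 and 332 TPM in Normal and 14.8 and 9.38 TPM in IR day 2 (log2 difference -4.40, SE 0.47, adjusted p = 3.07e-05). No IR day 2 library reached a Normal library for any of them. Of 18 such genes, listed after the values were seen, 15 fell, against 13.6% of all genes tested, and none rose, and every alternative gave 14 or 15 falls. The list includes Btg2 and Hbegf, described above among p53 targets and EGF ligands. The handling time of each preparation is not given in the sources used here, and its part in these values was not tested.

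Other cells that a preparation could hold were followed by their markers. With no minimum level, 3 of 7 neutrophil markers rose and 1 fell, with a median log2 difference of 0.18. At this setting 831 of all 19065 genes rose and 1419 fell. The markers that rose were at 0 in Normal and passed the minimum only through IR day 2. S100a8 and S100a9, listed at 0 in both Normal libraries, were at 3.4 and 17.5 TPM and 11.2 and 26.2 TPM in IR day 2 and also occur in stratified epithelium, and Ly6g, also at 0 in Normal, was at 2.72 and 6.33 TPM (log2 difference 2.38, SE 0.48, adjusted p = 0.00245). Retnlg fell from 23.8 and 9.51 TPM to 2.93 and 2.52 TPM (log2 difference -2.12, SE 0.58, adjusted p = 0.0141), a call lost without either IR day 2 library and without Normal replicate 1, and 4 of the 8 markers were under 1 TPM in all 4 libraries. For S100a8 the call was lost without IR day 2 replicate 2 and without Normal replicate 2. Of 11 macrophage and dendritic cell markers 3 fell, against 13.6% of all genes tested, and none did after quantile normalization, after removal of the gene length trend, or without IR day 2 replicate 2 or Normal replicate 2. Pancreatic acinar genes were at 465 and 915 TPM in sum in Normal and 240.4 and 133 TPM in IR day 2, with 3 of 13 called lower, against 13.6% of all genes tested, 7 without IR day 2 replicate 1, 0 without IR day 2 replicate 2 and 1 without Normal replicate 2. No fibroblast or endothelial marker passed limma, 1 neuron and glia marker passed after quantile normalization but not after rescaling, and of smooth muscle markers Smtn fell (-2.13). Among 11 epithelial markers Krt18, a keratin of simple epithelium, was called higher at 206 and 331 TPM in Normal and 701 and 938 TPM in IR day 2 (log2 difference 1.63, SE 0.28, adjusted p = 8.19e-04), and the intestinal transcription factors Cdx1 (-1.09) and Cdx2 (-1.01) were called lower. Neither was called without Normal replicate 2, with scaling to the 75th percentile or after removal of the gene length trend.

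To place day 2 in the course after irradiation, it was compared with the crypts of day 1 and day 3 in the same fit. These comparisons share the IR day 2 libraries with the one against Normal, so the differences are not independent of it. Against day 1, of 11132 genes tested 323 (2.9%) were higher at day 2 and 289 (2.6%) lower. Against day 3, of 10700 genes tested 1864 (17.4%) were higher at day 2 and 274 (2.56%) lower, with a median of 0.29 over all genes. Mitochondrial genes took 31.8% and 29.7% of summed TPM at day 1 and 48.4% and 37.9% at day 3. The day 1 count was unsteady, between 272 and 1405 genes as 1 library was left out, and the day 3 count was 754 without IR day 2 replicate 1 and 1410 without IR day 3 replicate 2.

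Of 39 p53 targets tested, 0 were higher and 1 lower at day 2 than at day 1, near the 2.9% and 2.6% of all genes tested. Against day 3, 3 were higher and 0 lower, where the shares of all genes were 17.4% and 2.56%. Cdkn1a was at 313 and 327 TPM at day 1 and 266 and 276 TPM at day 3, against 347 and 333 TPM at day 2. Phlda3 was at 75.7 and 79.6 TPM at day 1 and 167 and 198 TPM at day 3. Its differences, day 2 minus the other day, were 0.49 (adjusted p = 0.142) against day 1 and -0.73 (adjusted p = 0.014) against day 3, both under 2-fold.

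The mean levels of the mitosis and replication lists were lowest at day 2 among days 1, 2 and 3. Against day 1, 21 of 39 mitosis genes and 20 of 46 replication genes were called lower, and against day 3, 5 of 35 and 13 of 43. Of all genes tested 2.6% were lower against day 1 and 2.56% against day 3. None of either list was called higher against either day. Tk1 was at 24.6 and 20.9 TPM at day 1 and 21.3 and 24.2 TPM at day 3, and differed by -1.54 (adjusted p = 0.00345) against day 1 and -1.54 (adjusted p = 0.00106) against day 3. For Top2a, at 23.9 and 11.1 TPM at day 1 and 4.83 and 7.71 TPM at day 3, the day 3 difference was -0.05 (adjusted p = 0.909) and did not pass.

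**Figure D5:**
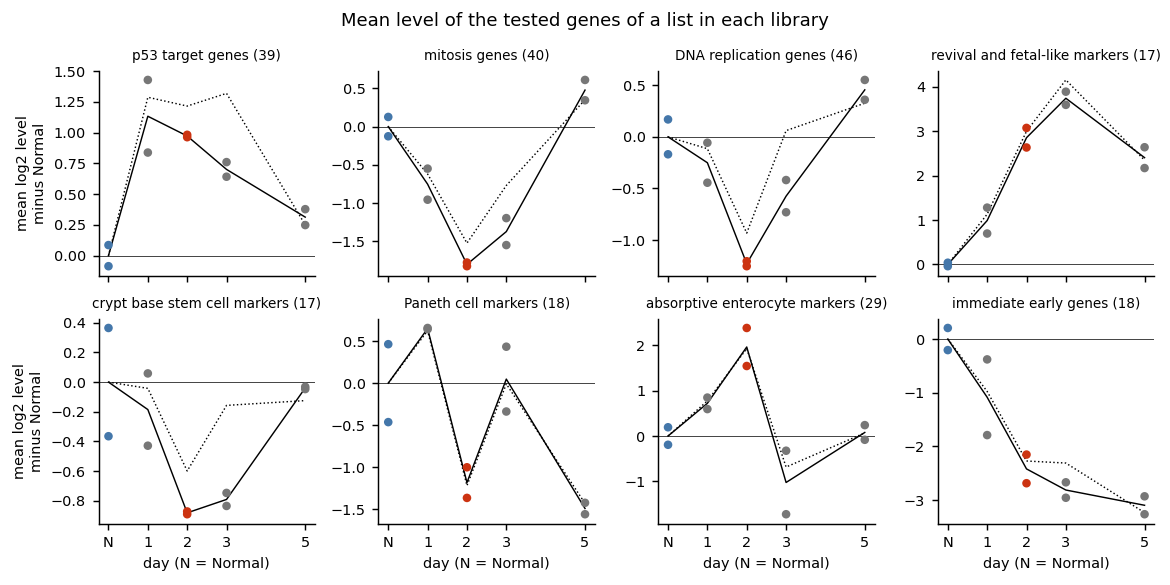
Mean log2(TPM + 1) of the tested genes of 8 lists in each Normal and IR library, minus the mean of Normal (y axis), by day after irradiation (x axis). Points are libraries (blue Normal, red IR day 2, grey other days), solid lines are means of 2 libraries, and dotted lines are the same after quantile normalization. The mitosis list lies lowest at day 2, and the revival list is higher at day 2 than at day 1 and higher again at day 3.

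Of 17 revival genes tested, 13 were higher at day 2 than at day 1, against 2.9% of all genes tested, and none lower. Against day 3, 6 of 18 were lower, against 2.56%, and none higher. Clu was at 20.2 and 5.35 TPM at day 1 and 200.1 and 272 TPM at day 3, with differences of 2.95 (adjusted p = 9.51e-04) and -1.39 (adjusted p = 0.0189). Anxa1 was at 6.29 and 5.25 TPM at day 1 and 335 and 311 TPM at day 3, with differences of 3.51 (adjusted p = 1.25e-04) and -2.07 (adjusted p = 5.60e-04). Both genes were ordered day 1, day 2, day 3 without overlap of libraries.

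Of 29 absorptive enterocyte markers, 10 were higher at day 2 than at day 1, against 2.9% of all genes tested, and 28 higher than at day 3, against 17.4%, with none lower. Fabp2 was at 4184 and 4579 TPM at day 1 and 7596 and 1281 TPM at day 3. Of 18 Paneth cell markers, 14 were lower at day 2 than at day 1, against 2.6% of all genes tested, and 15 lower than at day 3, against 2.56%, with none higher. Lyz1 was at 7114 and 7868 TPM at day 1 and 3473 and 6256 TPM at day 3. Its differences were -2.07 (adjusted p = 0.00211) and -1.39 (adjusted p = 0.00633). Whether preparations of different days held the same proportions of crypt and villus was not tested.

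Among the immediate early genes, Fos was at 704 and 272 TPM at day 1, 59.9 and 47.7 TPM at day 3 and 130.1 and 71.3 TPM at day 5, and Atf3 at 178 and 54.2 TPM, 23.2 and 16 TPM and 6.53 and 4.7 TPM on these days. Of 17 tested against day 1, 9 were lower and 1 higher at day 2, against 2.6% and 2.9% of all genes tested.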

How the data were processed

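Bulk RNA-seq of crypts from 4 libraries was analysed, 2 Normal and 2 IR day 2, within the 18 crypt libraries of 9 groups. Per the labels, the authors made random-primed paired-end libraries and used Trimmomatic 0.39, STAR 2.7.3a (mm10) and featureCounts, and they deposited TPM in a single table of 29579 genes. How TPM was computed from the counts, and the annotation, are not given in the sources used here. Depth is unknown.

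The 13 genes named mt- were left out and libraries rescaled to 1000000. Values were log2(TPM + 1), so differences of low genes are understated. All 18 libraries entered one limma 3.58.1 fit in R 4.3.3 (lmFit, eBayes with trend and robust, group means). Tested were genes that averaged 1 TPM or more in the 4 libraries, p-values were Benjamini-Hochberg adjusted over all of them, and a call needed an adjusted p under 0.05 and 2-fold. This fit pools the spread over all groups, and an exact permutation test of 2 against 2 cannot go below 0.333. Gene positions came from a GENCODE annotation of mm10 and promoters from RefSeq GRCm38.p6. The script was tested on simulated data.

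Named were the 12 largest rises and 12 largest falls that did not overlap and passed with quantile normalization, the first 2 members of each list and its largest rise and fall, and all members of lists of up to 7. Other genes were named after their values were seen, among them Ccng1, Ccnb2, Uhrf1, Smoc2, Il33, Btg2, Fabp2, Apoa4, Krt15 and Igha. The members and lists were chosen with earlier results of these data known. Alternatives were other scalings (mitochondrial genes kept, quantile, 75th percentile), a pseudocount of 0.1, minimum means of 5 or none, no fold limit, no trend, fewer libraries in the fit, a replicate block and leaving out single libraries. Removal of a gene length trend and a crossed block were added after seeing the data. Organoid libraries were not used. A few genes are not reported here.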

Additional observations from a re-analysis of the deposited data

How the results depend on the processing

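The count of genes called between IR day 2 and Normal was 2404 and lay between 1709 and 2574 in all alternatives but 2, mitochondrial genes kept (3418) and no fold limit (3814, with 1306 higher and 2508 lower). The split moved more than the total. With mitochondrial genes kept 485 genes were higher and 2933 lower, with quantile normalization 990 were lower, with quantile normalization and the replicate block 1019 were lower, and with a gene length trend removed 1325 were higher and 983 lower. The cause was not tested. Leaving out 1 library gave totals of 1733 to 2397, with 620 to 916 higher and 949 to 1623 lower. Against day 1, 612 genes became 953 with no fold limit, 307 with Normal and IR groups alone in the fit and 84 with 4 libraries alone, and 272 to 1405 as 1 library was left out. Against day 3, 2138 became 3426 with no fold limit and 754 to 2752 as 1 library was left out. With one library in a group, that library is assumed to vary like the other groups.

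Same-numbered Normal and IR day 2 libraries did not deviate together (r = -0.14 across genes), while r was 0.33 between day 2 and day 1 and 0.12 between day 2 and day 3. Of 36 pairs of groups 14 were above 0.1, so the numbers were not taken as pairs. The replicate block gave 2513 calls (873 higher, 1640 lower) against Normal, 688 against day 1 and 2251 against day 3. The crossed pairing gave 2564 calls. Of 107 named genes that were called, 79 kept their call in every alternative in which they were tested, and none of the named genes that were called reversed. Depth cannot be read from TPM, so low genes carry unknown counting error, and with 2 libraries a group the spread rests on the pooled fit.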

Other observations

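A few further gene families were picked after their values were seen. Metallothioneins, which bind zinc and copper, rose in 3 of 4 members, against 7.51% of all genes tested, with Mt1 at 584 and 796 TPM in Normal and 4825 and 3255 TPM in IR day 2 (log2 difference 2.54, SE 0.60, adjusted p = 0.00668), not called without IR day 2 replicate 1, and Mt2 at 134 and 279.5 TPM in Normal and 3088 and 1989 TPM in IR day 2 (log2 difference 3.67, SE 0.86, adjusted p = 0.00613). With no minimum level, 4 of 6 small proline-rich genes rose, where 831 of all 19065 genes rose. Sprr2a2 was the most abundant of them at 873 and 566 TPM in Normal and 3865 and 4877 TPM in IR day 2 (log2 difference 2.62, SE 0.34, adjusted p = 1.31e-04), although its near-identical neighbours may share its reads. Krt7, a keratin of simple epithelium, was at 45.3 and 72.4 TPM in Normal and 165 and 225 TPM in IR day 2 (log2 difference 1.73, SE 0.27, adjusted p = 4.40e-04).

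All 3 gasdermin C genes tested fell, against 13.6% of all genes tested, with Gsdmc4, a pore-forming protein of the epithelium, at 45.1 and 67.3 TPM in Normal and 2.38 and 2.99 TPM in IR day 2 (log2 difference -3.93, SE 0.43, adjusted p = 3.52e-05). Of the mast cell proteases, Mcpt1 was at 46.4 and 68.6 TPM in Normal and 2.55 and 0.919 TPM in IR day 2 (log2 difference -4.46, SE 0.55, adjusted p = 8.26e-05) and Mcpt2 at 19.8 and 29 TPM in Normal and 2.65 and 4.93 TPM in IR day 2 (log2 difference -2.43, SE 0.28, adjusted p = 5.83e-05), and Cma1, a chymase, was listed at 0 in Normal and at 3.83 and 5.4 TPM in IR day 2. The nuclear noncoding RNAs Malat1 and Neat1 were uneven between the IR day 2 libraries, at 24.9 and 24 TPM in Normal and 16.5 and 4.5 TPM in IR day 2 for Malat1 and 16.4 and 21.2 TPM in Normal and 24.6 and 4.9 TPM in IR day 2 for Neat1, and none of the 4 tested was called.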
